A study of Mus musculus with 2 samples.

Results

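The enzymes that feed carbon into the tricarboxylic acid (TCA) cycle, turn the cycle, and connect it to glutamine were followed at the level of mRNA in macrophages exposed to interleukin-4 (IL-4). The 31 genes were taken by name, by a rule that uses no measured value although earlier results of these data were known, from the 15623 genes listed in either of the deposited tables. All 31 were listed in both libraries. They encode the mitochondrial pyruvate carrier, the pyruvate dehydrogenase complex, pyruvate carboxylase, most enzymes of the cycle, the malic enzymes, ATP citrate lyase, the enzymes that interconvert glutamate with glutamine or aspartate, and the itaconate-forming enzyme Acod1.

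Both libraries came from macrophages of wild type C57BL/6 mice. A 4% thioglycolate solution had been injected into the peritoneal cavity, and the cells were lavaged out 4 to 5 days later, left to adhere for 4 h and starved in medium with 0.5% FBS. One culture was left nontreated (NT), and the other received mouse IL-4 for 6 h. IL-4 is a Th2 cytokine that signals through Stat6 and turns macrophages to the alternative, M2 state. Each condition was sequenced as 1 library, so no difference was checked against the spread between replicates, and the labels do not give the number of mice behind a library. One label field names the cells as peritoneal macrophages and another gives the tissue as bone marrow.

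The TCA cycle oxidizes acetyl-CoA to carbon dioxide in the mitochondrial matrix and passes electrons to the respiratory chain. Pyruvate enters through a carrier in the inner membrane and becomes acetyl-CoA or oxaloacetate, while glutamine enters as 2-oxoglutarate. In inflammatory macrophages the cycle is known to be broken at several steps, with citrate drawn off for fatty acids and itaconate, whereas M2 macrophages are known for an intact cycle and for a need for glutamine.

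The libraries held 11035641 (NT) and 11250099 (IL-4) expected counts, the RSEM estimates of the reads that belong to each gene. As a check of the treatment, 5 known IL-4 response genes were read, and all were called higher with IL-4, namely Arg1 (30 and 7711 expected counts), Chil3 (121 and 9566), Mrc1 (679 and 6962), Irf4 (30 and 820) and Retnla (10 and 191). All 7 macrophage markers were present, with a summed level of 14840 FPKM in NT and 14737 FPKM in IL-4. FPKM is the count scaled for transcript length and library depth, so that levels of different genes can be compared. Of these, Csf1r was called higher (log2 ratio 0.90). Markers of other cells were low, and Siglecf (53 and 27 counts) and Msln (12 and 2 counts) were called lower. The sums were 106 and 96 counts for 4 B cell genes, 28.7 and 24.2 for 4 T cell genes, 53 and 28 for 3 eosinophil genes, and 59 and 47 for 4 mast cell genes. Of 5 neutrophil genes, 4 were absent from both tables and set to 0, and the list summed to 35 and 21 counts. The mesothelial and stromal list of 5 genes summed to 1150 and 903 counts, or 19.8 and 15.5 FPKM. Of 4 adipocyte genes only Adipoq had reads, 139 in the IL-4 library, where it was called higher. The part of these cells in the values below was not tested, and in a bulk sample fewer cells of a type cannot be told apart from less RNA per cell.

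At the thresholds of the study, none of the 31 enzyme genes was called higher in the IL-4 library and 2, Acod1 and Me1, were called lower. A call required IL-4 over NT to reach 0.75 in size on the log2 scale and the exact test of the reads to pass. Among all 15593 genes tested, 4.07% were called higher and 6.28% lower, so 0 and 2 of 31 were not far from the background. The test compares the reads of 2 libraries and not the conditions. The thresholds are those that the study states for this comparison. Its methods also give a fold change over 1.5 with a false discovery rate of 0.05 for RNA sequencing. At that setting Idh3a was called higher, and of the members only Acod1 was called lower. Of all 15593 genes tested, 754 were then called higher and 1207 lower. The summed level of all 31 genes was 1255 FPKM in NT and 1312 FPKM in IL-4. Over all genes tested the sum was also higher in IL-4, at 491829 FPKM in NT and 506879 FPKM in IL-4. The summed counts of the 31 genes gave a log2 ratio of 0.01, with a 95% counting interval from -0.01 to 0.03. In 25 of the 31 genes the whole interval lay inside 0.75 on either side of 0. Intervals here cover counting error alone, and since PCR copies are not independent molecules they may be too narrow.

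**Figure D1:**
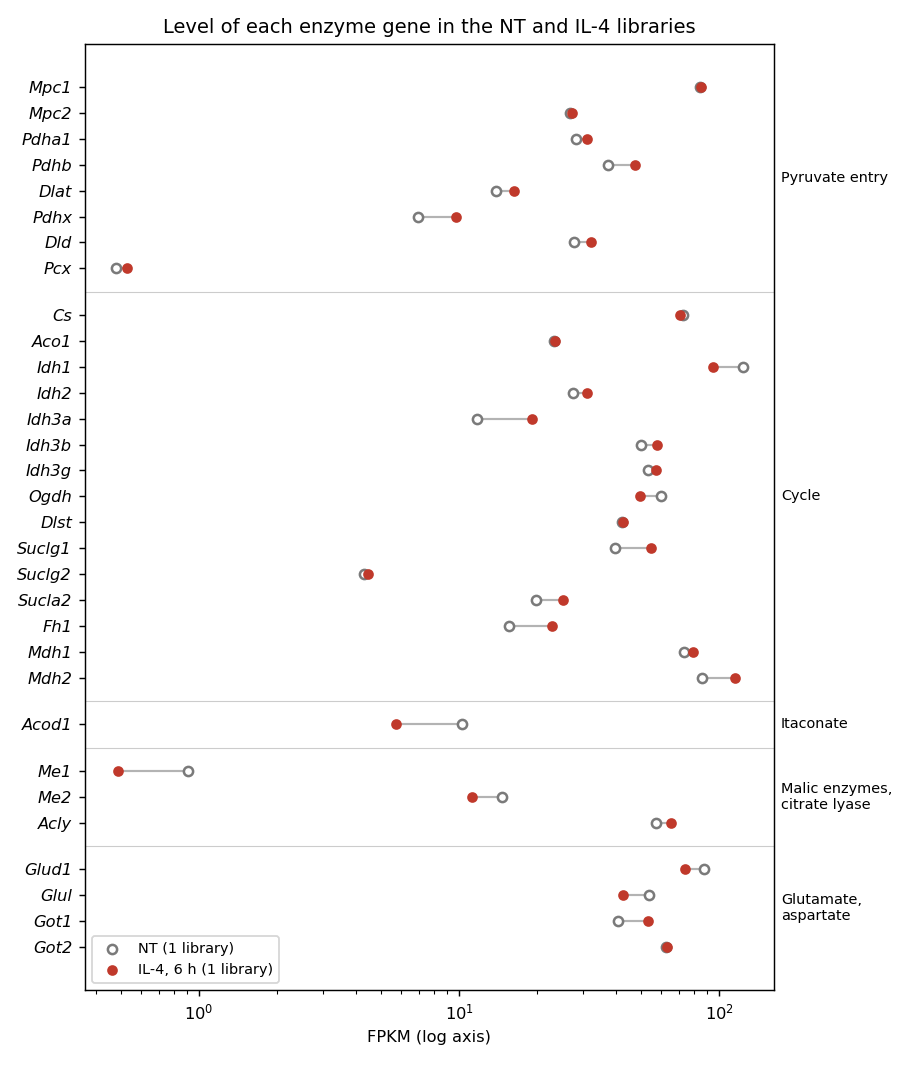
Level of each enzyme gene in FPKM (log axis) in the NT and IL-4 libraries, 1 library each, grouped by role. The paired points lie close together for most genes, and the largest separations are those of Idh3a (11.7 and 19.1 FPKM), Me1 (0.91 and 0.49 FPKM) and Acod1 (10.3 and 5.74 FPKM).

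Below that threshold the genes leaned upward. The log2 ratio was positive in 23 and negative in 8, with a median of 0.13 against -0.03 over all genes tested and 0.00 over those with at least 200 reads in the 2 libraries together. Of the 29 members with at least 200 reads, 14 (48.3%) had an interval wholly above 0, 6 (20.7%) had one wholly below 0, and 9 spanned 0. The corresponding shares of all 8461 genes with at least 200 reads were 28.0% above and 30.2% below.

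A part of this lean moved with transcript length. Shorter transcripts had higher ratios than longer ones across the whole pair of libraries. Among genes with at least 200 reads, the median length was 2345 bases for these enzyme mRNAs against 2917 over all genes. When each gene was set against the 200 genes closest to it in length, by subtracting their median ratio, the median of the members with at least 200 reads was 0.07. Of those 29, 12 then had an interval wholly above the median of their neighbours in length and 7 had one wholly below it. For all genes with at least 200 reads these shares were 25.1% and 26.7%. The value after subtraction is given below wherever it differs in sign, and for a member also wherever it left the counting interval.

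**Figure D2:**
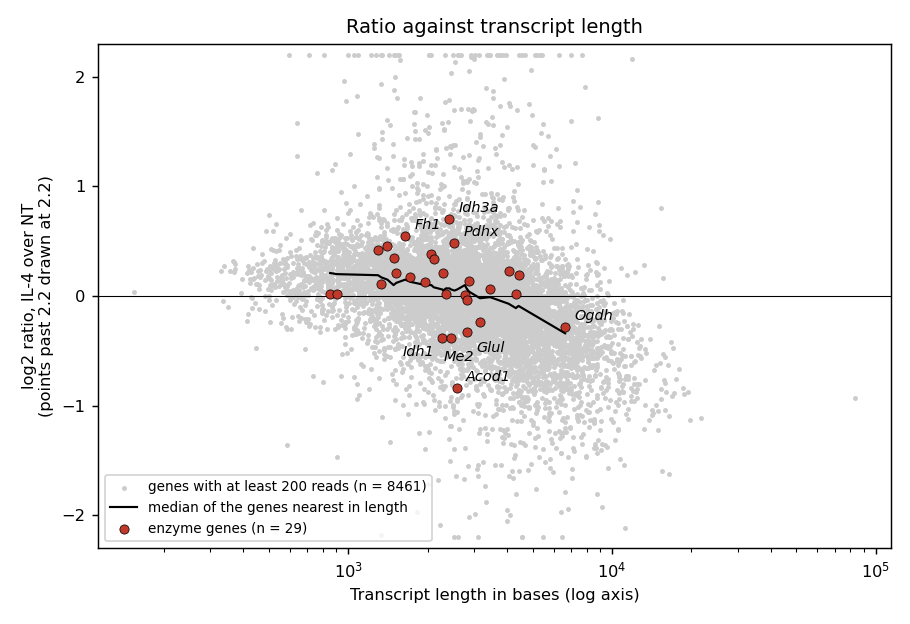
Log2 ratio of IL-4 over NT against transcript length (log axis) for genes with at least 200 reads (grey), with the 29 enzyme genes in red and the median of neighbours in length as a line. Points past 2.2 in either direction are drawn at 2.2. Ogdh, the longest of these enzyme mRNAs, lies near the line (-0.28 against -0.34), whereas Idh3a, Fh1 and Pdhx lie above it and Acod1, Idh1, Me2 and Glul below it.

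**Figure D3:**
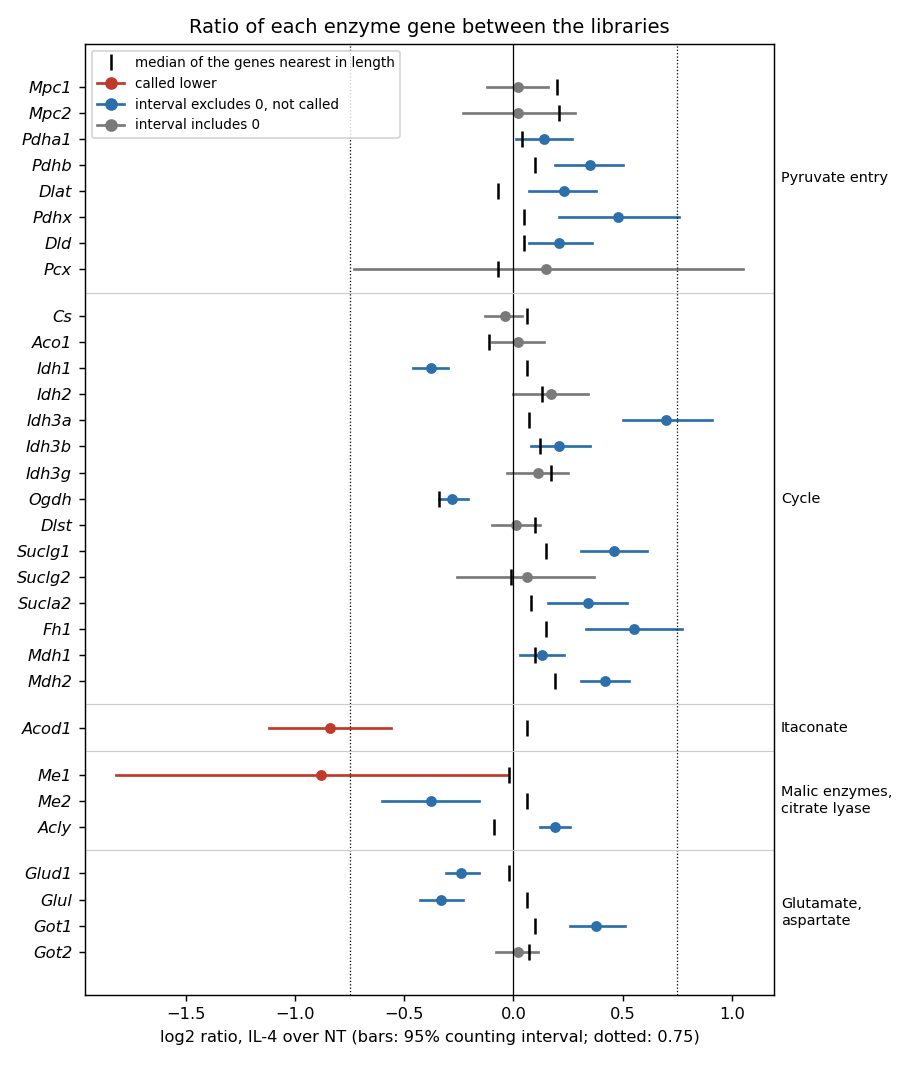
Log2 ratio of each enzyme gene with its 95% counting interval, grouped by role. Red marks the genes called lower, blue an interval that excludes 0, grey one that includes it, black ticks the median of genes of like length, and dotted lines 0.75. None of the points lies past the upper dotted line, and Acod1 and Me1 lie past the lower one.

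Acod1 (also named Irg1; chromosome 14, 103047012 to 103056573, GRCm38) encodes the mitochondrial enzyme that decarboxylates cis-aconitate to itaconate, an antimicrobial metabolite that inhibits succinate dehydrogenase. It fell from 295 expected counts in NT to 168 in IL-4, and per length it went from 10.3 to 5.74 FPKM. The log2 ratio was -0.84 (interval -1.12 to -0.56), a level 0.559 times that in NT. The interval reaches past -0.75, so the counts did not place the ratio firmly beyond the threshold. The call was lost when replicate libraries were assumed to vary with a coefficient of variation of 0.2 or 0.4. It was also lost when 1 FPKM was added, and at a threshold of 1 in size with BH of at most 0.05.

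The Acod1 promoter is shown because it belongs to the called gene with more reads and was among the windows poorest in CpG. Windows of the 250 bases before the annotated start were read from RefSeq sequence (GRCm38) for 29 of the 31 genes, in 38 windows, since some genes have several starts. Idh3a and Me2 had no entry. The median member window held 17 CpG dinucleotides against 6 over all 32851 windows. Only 3 member windows, 1 each of Acod1, Me1 and Pcx, held 5 or fewer, against 49.6% of all windows. The Acod1 window (chr14:103046762-103047011, plus strand) held 2, as did 1 window of Me1, and carried the letters TATAAA from 28 to 23 bases before the start, in capitals.
Acod1: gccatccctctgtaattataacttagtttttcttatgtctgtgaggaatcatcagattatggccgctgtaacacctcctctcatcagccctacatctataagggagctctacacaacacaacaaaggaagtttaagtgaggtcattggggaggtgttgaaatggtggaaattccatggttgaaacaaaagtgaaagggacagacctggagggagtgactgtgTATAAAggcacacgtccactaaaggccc
On either strand, TATAAA was in 2 member windows, those of Acod1 and Got2, and in 12.4% of all windows. For Me1 and Pcx, windows at other annotated starts held 23 and 16 CpG dinucleotides.

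Genes of pyruvate entry had positive ratios in 8 of 8, none of them called, with a median log2 ratio of 0.18. The pyruvate carrier itself was level. Mpc1 had 825 and 851 expected counts in NT and IL-4 (84.3 and 85.3 FPKM), and Mpc2 had 246 and 255 (26.8 and 27.2 FPKM). Both log2 ratios were 0.02, with intervals from -0.12 to 0.16 and from -0.23 to 0.28, and both were -0.18 with length subtracted.

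The pyruvate dehydrogenase complex, which commits pyruvate to acetyl-CoA, was higher in the IL-4 library for each of its 4 own subunits, with intervals above 0. Their summed counts were 2325 and 2818, a log2 ratio of 0.25 (0.17 to 0.33). Pdhx, the protein that anchors the E3 component to the core, had 195 and 278 counts and a log2 ratio of 0.48 (0.21 to 0.76). Pdhb, the beta subunit of E1, had 607 and 787 counts and a log2 ratio of 0.35 (0.19 to 0.50). Dlat, the E2 core, had 626 and 746 counts (0.23, 0.07 to 0.38), and Pdha1, the E1 alpha subunit, had 897 and 1007 (0.14, 0.01 to 0.27). The Pdha1 value is less secure than its counts imply, since 603 of its exonic bases overlap Map3k15 on the opposite strand and the sources used here do not state whether counting used strand. Dld, the E3 subunit that the complex shares with oxoglutarate dehydrogenase, had 701 and 829 counts and a log2 ratio of 0.21 (0.07 to 0.36). Pcx, which makes oxaloacetate from pyruvate, was hardly expressed in either library, with 22 and 25 counts (0.48 and 0.53 FPKM), and at this depth its interval ran from -0.73 to 1.05.

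Within the cycle group, 12 of 15 genes had positive ratios and none was called, with 7 intervals above 0 and 2 below. The group includes the cytosolic enzymes Aco1, Idh1 and Mdh1, which lie outside the cycle of the matrix. Mdh1 is among those with an interval above 0, and Idh1 among those with an interval below 0. Citrate synthase, the entry step, was level, with 2285 and 2258 counts for Cs and a log2 ratio of -0.04 (-0.13 to 0.04). So was Aco1, the cytosolic aconitase that doubles as an iron-responsive RNA-binding protein, with 1116 and 1151 counts (0.02, -0.10 to 0.14).

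Among the isocitrate dehydrogenases, genes of the cytosolic and mitochondrial enzymes moved apart between the libraries. Idh3a (chromosome 9, 54586511 to 54604662), the catalytic subunit of the NAD-dependent enzyme, had the highest ratio of the 31 genes. Its expected counts were 314 and 521, its level 11.7 and 19.1 FPKM, and its log2 ratio 0.70 (0.50 to 0.91), just inside the threshold. Its partner subunits moved less. Idh3b had 833 and 985 counts (0.21, 0.08 to 0.35), and Idh3g had 775 and 853 (0.11, -0.03 to 0.25), which was -0.06 with length subtracted. Idh2, the mitochondrial NADP-dependent enzyme, had 519 and 596 counts and a log2 ratio of 0.17 with an interval that touched 0. In contrast, Idh1 (chromosome 1, 65158616 to 65186479), the cytosolic NADP-dependent enzyme and the member of highest level in NT, had 3094 and 2423 counts, or 123 and 94.6 FPKM. Its log2 ratio was -0.38 (-0.46 to -0.30).

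Of the oxoglutarate dehydrogenase genes, Ogdh, the E1 component, had 4443 expected counts in NT and 3743 in IL-4, a log2 ratio of -0.28 (-0.34 to -0.21). With length subtracted its ratio was 0.06, so the lower value was no larger than that of other mRNAs of its length. Dlst, the E2 component, had 1300 and 1332 counts (0.01, -0.10 to 0.12), which was -0.09 with length subtracted and -0.01 when the 100 most abundant genes were left out of the total.

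The succinyl-CoA synthetase genes summed to 1237 counts in NT and 1626 in IL-4, a log2 ratio of 0.37 (0.26 to 0.47). Suclg1, the alpha subunit common to both forms of the enzyme, had 611 and 856 counts (0.46, 0.31 to 0.61). With length subtracted its log2 ratio was 0.31, at the edge of the interval. Sucla2, the beta subunit of the ADP-forming enzyme, had 461 and 595 (0.34, 0.16 to 0.52). Suclg2, which gives the GDP-forming enzyme, had 165 and 175 counts, and its interval of -0.26 to 0.37 around 0.06 held both 0 and the ratio of Sucla2.

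The last steps of the cycle were higher in the IL-4 library. Fh1 (chromosome 1, 175601378 to 175625635), the fumarase, had 282 and 420 counts, or 15.6 and 22.8 FPKM, a log2 ratio of 0.55 (0.33 to 0.77). Mdh2, the mitochondrial malate dehydrogenase, had 1213 and 1656 counts (0.42, 0.31 to 0.53) and was the member of highest level in the IL-4 library, at 114.6 FPKM. Its cytosolic counterpart Mdh1 had 1576 and 1754 counts (0.13, 0.03 to 0.23). With length subtracted the log2 ratios were 0.23 for Mdh2 and 0.02 for Mdh1, both below their intervals.

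IL-4 acts through Stat6, which binds palindromes of the form TTCNNNNGAA, so the same promoter windows were searched for these letters. They were found in 2 of the 38 member windows, those of Fh1 and Idh3b, and in 5.85% of all windows. The matches lie from 142 to 133 bases before the Fh1 start (chr1:175625636-175625885, minus strand) and from 197 to 188 bases before the Idh3b start (chr2:130284452-130284701, minus strand), and they are in capitals below.
Fh1: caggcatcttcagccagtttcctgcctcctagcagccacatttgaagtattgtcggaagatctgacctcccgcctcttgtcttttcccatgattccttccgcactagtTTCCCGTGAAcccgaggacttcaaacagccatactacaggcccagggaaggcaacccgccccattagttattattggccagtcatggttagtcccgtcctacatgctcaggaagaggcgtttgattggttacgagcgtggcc
Idh3b: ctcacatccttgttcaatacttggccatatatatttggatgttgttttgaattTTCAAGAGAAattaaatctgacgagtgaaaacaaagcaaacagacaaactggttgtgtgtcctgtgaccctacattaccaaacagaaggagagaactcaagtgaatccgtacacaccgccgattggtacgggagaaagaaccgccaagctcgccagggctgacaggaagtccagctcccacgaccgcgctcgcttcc
The log2 ratio was 0.55 for Fh1 and 0.21 for Idh3b, and Pdhx (0.48) and Suclg1 (0.46) had no match in these windows. Idh3a, the member of highest ratio, had no window, and bases more than 250 before a start were not searched. Whether the matches bear on the ratios was not tested. A match of letters is a description and does not show binding.

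The malic enzymes and ATP citrate lyase, which move cycle carbon to pyruvate and to cytosolic acetyl-CoA, did not move together. Me1 (chromosome 9, 86581363 to 86695914), the cytosolic NADP-dependent malic enzyme, had 33 expected counts in NT and fell to 18 in IL-4 (0.91 and 0.49 FPKM). On the log2 scale the ratio was -0.88, but with so few reads its interval ran from -1.82 to -0.03. The call was lost with TMM scaling and with an assumed coefficient of variation of 0.1 between replicate libraries. Me2, the mitochondrial malic enzyme, was far higher per length, with 397 counts (14.6 FPKM) in NT and 311 (11.2 FPKM) in IL-4, and its log2 ratio was -0.38 (-0.60 to -0.16). Acly, which splits exported citrate to acetyl-CoA for lipid synthesis and acetylation, had 2806 and 3267 counts (0.19, 0.12 to 0.26). With length subtracted its log2 ratio was 0.28.

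The glutamate and aspartate genes were divided, with 1 interval above 0 and 2 below among 4 genes, none of them called. Glul (chromosome 1, 153899929 to 153909723), the glutamine synthetase, had 1688 and 1369 expected counts, or 53.9 and 42.9 FPKM, and a log2 ratio of -0.33 (-0.43 to -0.23). Glud1, the mitochondrial glutamate dehydrogenase, had 3060 and 2643 counts (-0.24, -0.31 to -0.16). Both were lower in the IL-4 library. Got1, the cytosolic aspartate aminotransferase of the malate-aspartate shuttle, had 929 and 1236 counts, or 40.8 and 53.2 FPKM, and a log2 ratio of 0.38 (0.26 to 0.51). Got2, its mitochondrial counterpart, had 1620 and 1669 counts (0.02, -0.08 to 0.11), which was -0.06 with length subtracted, and 379 of its exonic bases overlap another annotated transcript on the opposite strand.

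Partner enzymes were then set against each other within the libraries, in 13 pairs chosen with these ratios already known, so the differences are a description. The FPKM of Idh1 was 4.49 times that of Idh2 in NT and 3.06 times in IL-4. The difference of their log2 ratios was -0.55 (-0.74 to -0.37). Mdh1 was at 0.852 times Mdh2 in NT and 0.695 times in IL-4, a difference of -0.29 (-0.44 to -0.15). Thus in both pairs the balance of mRNA lay further toward the mitochondrial enzyme in the IL-4 library. The aspartate aminotransferases went the other way, with Got1 at 0.653 times Got2 in NT and 0.843 times in IL-4, a difference of 0.37 (0.21 to 0.53). A shift by compartment was therefore not shared by all pairs. The 7 cytosolic members summed to a log2 ratio of -0.03 (-0.07 to 0.01), and the 24 mitochondrial members summed to 0.03, with an interval from 0 to 0.05 after rounding.

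Within complexes, Idh3a differed from both of its partners. It stood at 0.235 times Idh3b in NT and 0.33 times in IL-4, a difference of 0.49 (0.25 to 0.73), and its difference from Idh3g was 0.59 (0.35 to 0.84). Idh3b and Idh3g differed by 0.10, with an interval from -0.09 to 0.30. Pdha1 less Pdhb gave -0.21 (-0.41 to -0.01), and intervals for Pdhx less Dlat, Mpc1 less Mpc2, Suclg2 less Sucla2, Me1 less Me2 and Glud1 less Glul included 0. The Ogdh and Dlst difference of -0.28 (-0.41 to -0.16) turned to 0.15 with length subtracted.

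**Figure D4:**
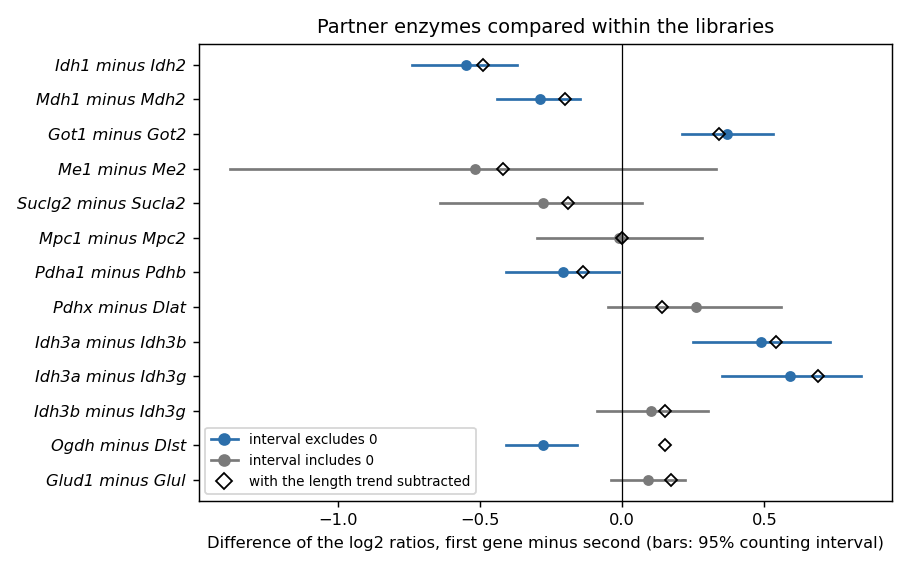
Difference of the log2 ratios of partner genes (first less second) with 95% counting intervals, blue where the interval excludes 0, and open diamonds for the difference with length subtracted. Idh1 and Mdh1 lie to the left of 0 against their mitochondrial partners, Got1 and Idh3a lie to the right, and the diamond of Ogdh and Dlst is on the other side of 0 from its point.

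Genes around the cycle were read from a list of 53 others, of which 52 had reads (Pdk4 was absent from both tables and set to 0). Of these, 6 were called higher and none lower, against 4.07% and 6.28% of all genes tested. Of the 6 called genes, 4 encode enzymes of amino acid metabolism that use or form glutamate or glutamine. These 4 are among 12 genes listed for their links to glutamine and amino acids, so the shared trait follows from how the list was made. Psat1, the transaminase of serine synthesis, which turns glutamate into 2-oxoglutarate, had 266 counts in NT and rose to 650, a log2 ratio of 1.26 (1.05 to 1.47). Asns, the glutamine-dependent asparagine synthetase, rose from 270 to 646 (1.23, 1.02 to 1.44). Aldh18a1, which starts proline synthesis from glutamate, rose from 186 to 354 (0.90, 0.64 to 1.16). The glutamine carrier Slc1a5 rose from 521 to 901 (0.76, 0.61 to 0.92), close enough to the threshold that its ratio was 0.69 with length subtracted. Acss1, which makes mitochondrial acetyl-CoA from acetate, rose from 316 to 823 (1.35, 1.16 to 1.54). Abat, the GABA transaminase, had few reads, 5 and 21, and its interval ran from 0.60 to 3.81.

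The list for the rest of the cycle had positive ratios in 8 of 8 genes with a median of 0.13, none of them called. It includes assembly factors of succinate dehydrogenase, which are not enzymes of the cycle. Of the succinate dehydrogenase subunits, Sdha had a log2 ratio of 0.19 (0.11 to 0.26), Sdhb of 0.46 (0.33 to 0.58) and Sdhc of 0.05 (-0.08 to 0.18), which was -0.13 with length subtracted. With length subtracted the median of this group was -0.02. Ldha, which turns pyruvate to lactate and was the gene of highest level in this list, had 4766 and 7332 counts, a log2 ratio of 0.59 (0.54 to 0.65), and was not called.

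Neighbouring pathways were read the same way, and the differences between lists were not tested. The shares over all genes were again 4.07% called higher, 6.28% called lower and, at 200 reads or more, 28.0% with intervals above 0. Of 30 respiratory chain genes, 1 was called higher (Cycs, cytochrome c, log2 ratio 0.76), the median was 0.30 and 80.0% of those with at least 200 reads had intervals above 0. The 4 succinate dehydrogenase genes are in this list as well as in the last. Of 18 fatty acid oxidation genes none was called, with a median of 0.24 and 61.1% above 0. Of 15 glycolysis genes, 2 were called higher (the hexokinase Hk2, 1.16, and the phosphofructokinase Pfkp, 0.80). Another phosphofructokinase, Pfkl, was the 1 called lower (-0.83, or -0.74 with length subtracted). The median was 0.04 and 61.5% of those with at least 200 reads had intervals above 0. Intervals below 0 made up 30.8% for glycolysis, 5.56% for fatty acid oxidation, 3.33% for the respiratory chain and 30.2% over all genes. With length subtracted the medians were 0.14 for the respiratory chain, 0.13 for fatty acid oxidation, 0.07 for the 31 enzyme genes and -0.08 for glycolysis.

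**Figure D5:**
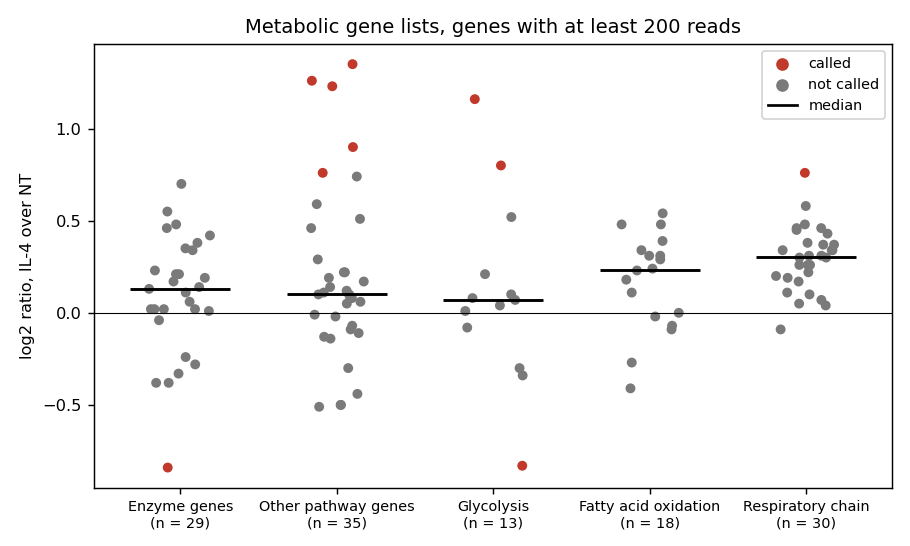
Log2 ratio of IL-4 over NT for each gene with at least 200 reads in the enzyme list and in the lists set beside it, 1 point per gene, red where called, with the median of each list as a bar. The enzyme genes spread from -0.84 (Acod1) to 0.70 (Idh3a) around a median of 0.13, and glycolysis genes spread from -0.83 to 1.16.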

How the data were processed

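Total RNA of 2 samples, NT and IL-4, was cleaned up with an RNeasy kit and submitted to Illumina HiSeq sequencing. Per the submitters' processing notes, Bowtie, RSEM and the GRCm38/mm10 build were used (versions not given in the sources used here, nor whether counting used strand). The deposited expected counts are RSEM estimates per gene and need not be whole. Among the 31 genes, 4 had fractional counts (Pdha1, Aco1, Ogdh and Glul). The deposited FPKM values are scaled by the authors for length and assigned fragments. A gene absent from a table was set to 0. NCBI gene numbers gave symbols for 15587 of 15623 genes through a RefSeq table for GRCm38.

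Log2 ratios were computed from expected counts scaled to library totals with 0.5 count added. Counts were rounded, and for 15593 genes the reads were compared by an exact conditional binomial test (two-sided) with Benjamini-Hochberg (BH) adjustment. Calls followed the thresholds that the study states for this comparison. These are 0.75 for the size of the log2 ratio, 0.05 for the p-value and 0.5 for the BH value. The fold change over 1.5 with a false discovery rate of 0.05 in its methods was run as an alternative. With 1 library per group, the p-values are not shown. Counting intervals (95%, exact Clopper-Pearson) were computed on the fraction of each gene's reads found in IL-4. The floor for detection, 3 counts of a library, was 0.272 CPM in NT and 0.267 CPM in IL-4.

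The members and lists were chosen with earlier results of these data known, and the pairs and complexes after the values were seen. Every member is named, as are all treatment check genes, and of the other lists the called genes and the 5 pathway genes of highest level (1 of which is not reported here), with Pdk4 and genes in the closing section added after their values were seen. Alternatives were TMM (edgeR 4.0.16) and median-of-ratios (DESeq2 1.42.0) scaling, FPKM with 0.1 or 1 added, and a total without the 100 most abundant genes. Others were subtraction of a length trend, other thresholds, and a minimum of 10 counts. An edgeR exact test was also run with an assumed coefficient of variation between replicate libraries. Scripts were tested on simulated data. Exon overlaps came from GENCODE mouse annotation. Software was R 4.3.3 and Python 3.11.15 with scipy 1.17.1, numpy 2.4.6, matplotlib 3.10.9 and pandas 2.3.3.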

Additional observations from a re-analysis of the deposited data

How the results depend on the processing

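No paired analysis was possible because NT and IL-4 have 1 library each, and leaving out a replicate was likewise not possible. No member was called higher under any alternative except a fold change over 1.5 with BH of at most 0.05, which called 1, Idh3a. That setting called 754 of all genes tested higher. The number called lower was 2 at the main setting and was 2 with median-of-ratios scaling, without the 100 most abundant genes, with 0.1 FPKM added, with length subtracted and at 10 counts or more. It was 1 (Acod1) with TMM scaling, an assumed coefficient of variation of 0.1, and a fold change over 1.5 with BH of at most 0.05. It was 0 with 1 FPKM added, a coefficient of 0.2 or 0.4, and a log2 ratio of at least 1 with BH of at most 0.05. Of all genes tested, 979 were called lower at the main setting, and 737 to 1036 at the other settings that gave 2 members. Where 1 member was lower, the counts over all genes were 880 (TMM), 914 (coefficient of 0.1) and 1207 (fold change over 1.5). Where none was, they were 399 (1 FPKM added), 423 (coefficient of 0.2), 8 (coefficient of 0.4) and 476 (log2 ratio of at least 1). With a coefficient of 0.4, 65 of all genes tested were called higher. The calls thus rest on how much replicate libraries vary, which 1 library per group cannot show. The median log2 ratio of the members stayed between 0.07 and 0.16. Of 186 values of single members recomputed under an alternative, 179 stayed inside the counting interval, and the 7 outside it all came from subtraction of length. These were Mdh2 (0.23), Mdh1 (0.02), Suclg1 (0.31) and Acly (0.28), besides Mpc1, Idh3g and Ogdh. The sign changed with length subtracted for Mpc1 (-0.18), Mpc2 (-0.18), Idh3g (-0.06), Ogdh (0.06), Dlst (-0.09) and Got2 (-0.06), and for Dlst (-0.01) without the 100 most abundant genes. Counting intervals reached a median of 0.14 to either side of the ratio on the log2 scale, and depth limits Pcx and Me1 most.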

Other observations

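Genes that control the pyruvate dehydrogenase complex, and the pair of acetate-activating enzymes, had values of interest that were picked after they were seen. Of the 6 control genes with reads, none was called, 5 had negative log2 ratios and the median was -0.29, while the subunits of the complex had positive ones. Pdk1, a kinase that inhibits the complex, had 121 expected counts in NT and 77.0 in IL-4, a log2 ratio of -0.68 (interval -1.11 to -0.26). Among the genes of the opposing phosphatase, Pdp1, the one of highest level, had 701 and 671 counts (-0.09, -0.25 to 0.06). Lower values were found with 216 and 154 counts for the catalytic subunit Pdp2 (-0.51, -0.82 to -0.21) and 119 and 89 for the regulatory subunit Pdpr (-0.44, -0.86 to -0.04). Pdk2 and Pdk3 had intervals that included 0.

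The acetyl-CoA synthetases differed by compartment. Mitochondrial Acss1 had 7.90 FPKM in NT and 20.2 FPKM in IL-4, whereas cytosolic and nuclear Acss2 had 3.63 and 2.34 FPKM, with 114 and 75 expected counts and a log2 ratio of -0.63 (-1.07 to -0.20) that was not called. Among the phosphofructokinases, Pfkp rose from 33.9 to 59.1 FPKM and Pfkl fell from 24.9 to 14.0 FPKM, so the liver-type and platelet-type genes, close in level in NT, were apart in IL-4.

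Exons of other genes overlap those of some members. The opposite strand carries 187 such bases for Mpc1, 67 for Glul, 30 for Me1 and 5 for Idh3b, and a microRNA gene covers 93 bases of Glul on the same strand.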
